A study of Mus musculus with 11 samples.

Results

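Ubiquitin-conjugating enzymes carry activated ubiquitin to its substrates, and ubiquitin-specific proteases cut it off again. The members described here are the mouse genes whose single symbol in the probe annotation began with Ube2 and a letter or with Usp and a digit. This name rule took in 84 genes with 209 probe sets, 33 Ube2 genes and 51 Usp genes. A probe set was tested when its signal lay above the median of its own array on at least 2 of the 11 arrays, and 72 member genes passed (30 Ube2 and 42 Usp, with 175 probe sets) of 12214 genes tested in all. A gene could pass through the group in which it was high, so the members that passed are not all members. The 12 genes that did not pass were Ube2d2b, Ube2ql1, Ube2u, Usp17la, Usp26, Usp27x, Usp29, Usp43, Usp44, Usp46os2, Usp50 and Usp9y, none with a signal above 603.2 on any array. The name rule also took in Usp6nl, a TBC domain protein that is no protease, Ube2d-ps, a pseudogene, and Ube2cbp, a ligase that binds conjugating enzymes.

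The muscle was the tibialis anterior, the shin muscle, which is made mostly of fast fibres. In every group, controls included, the mice were runx1f/-, with 1 floxed and 1 null allele of Runx1, which encodes a transcription factor. Mutant mice also had MCK::cre, a Cre recombinase transgene switched on in muscle fibres by the muscle creatine kinase promoter, so the other cells of the muscle kept the floxed allele and an effect of Cre itself cannot be told apart from one of Runx1 loss. Control muscle was measured on 3 innervated and 3 denervated arrays, and mutant muscle on 2 innervated and 3 denervated ones. The titles put denervation at 3 days, while for denervated control 3 a treatment note says 5 days. Age, sex and strain background are not given in the labels, and the labels do not say that replicates came from separate animals. A p therefore describes the spread among these samples, which may be technical.

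Ubiquitin is passed from an activating enzyme to a conjugating enzyme, and from there, with the help of a ligase, to a substrate. The conjugating enzyme helps to decide which kind of ubiquitin chain is built, and some chains send the substrate to the proteasome. Proteases of the USP family are cysteine proteases that trim or remove ubiquitin, and the ubiquitin-proteasome system is known for breaking down contractile proteins when a muscle loses its nerve.

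The sequences shown first are the 250 bases before the start of Usp46 and Usp28, the members that differed between the genotypes in denervated muscle, and of Ube2c, the conjugating enzyme that rose most in mutant muscle. They are RefSeq sequences of GRCm38.p6, written in the direction of the gene, and capitals mark the motif named for each. For Usp46, at chr5:74068412-74068661 on the minus strand, the capitals mark the CAGCTG E-box, a form bound by the muscle factors MYOG and MYOD. For Usp28, at chr9:48985135-48985384 on the plus strand, and for Ube2c, at chr2:164769679-164769928 on the plus strand, they mark the CCAAT box read on either strand, with 1 and 6 matches, of which 2 in Ube2c overlap.
Usp46: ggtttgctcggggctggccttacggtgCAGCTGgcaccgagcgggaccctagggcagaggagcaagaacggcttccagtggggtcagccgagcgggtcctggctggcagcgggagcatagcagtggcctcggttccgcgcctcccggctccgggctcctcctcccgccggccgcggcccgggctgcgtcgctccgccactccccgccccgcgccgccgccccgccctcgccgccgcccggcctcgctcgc
Usp28: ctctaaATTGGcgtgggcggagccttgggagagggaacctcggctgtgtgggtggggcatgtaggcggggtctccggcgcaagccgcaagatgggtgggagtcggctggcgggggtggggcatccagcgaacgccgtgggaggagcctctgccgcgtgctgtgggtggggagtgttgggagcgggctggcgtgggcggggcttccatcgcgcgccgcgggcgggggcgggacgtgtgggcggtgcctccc
Ube2c: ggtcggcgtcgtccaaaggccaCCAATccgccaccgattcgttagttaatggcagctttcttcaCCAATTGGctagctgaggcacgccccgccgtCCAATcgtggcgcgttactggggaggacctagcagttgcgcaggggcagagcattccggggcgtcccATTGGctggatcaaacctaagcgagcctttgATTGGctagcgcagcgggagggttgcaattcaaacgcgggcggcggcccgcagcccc
None of the 3 windows held TGTGGT, the core recognised by RUNX factors, on either strand, and this says only that those letters are not in these bases. A promoter entry was found for 56 of the 72 members tested. TGTGGT stood in 4 of the 56 (7.14%), against 12.7% of the 9847 genes tested on the arrays that had an entry and 15.9% of all 27025 genes of the promoter table. CAGCTG stood in 8 (14.3%, against 14.7% of tested genes and 14.7% of all genes). CCAAT stood in 11 (19.6%, against 39.9% and 37.5%). The antioxidant response core TGACNNNGC stood in 10 (17.9%, against 14.03% and 11.5%) and the FOXO core GTAAACA in 1 (1.79%, against 2.65% and 3.54%). All were searched on both strands, and a match is a description of the letters, not a binding site.

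Values are probe set signals that the authors had scaled to the same trimmed mean on every array, and each gene is given by its brightest tested probe set. Median signals ranged from 442.5 to 604.6 between arrays, and precision is limited by how few arrays there are. Runx1 itself went from 505, 519 and 179 in innervated control muscle to 23499, 25898 and 24353 after denervation, and from 288 and 395 to 20403, 20449 and 23185 in mutant muscle. Where its probe set lies relative to the floxed part is not known here, so this level checks nothing about the deletion. The fast fibre markers were lower after denervation for 8 of 10 genes in control muscle and 10 of 10 in mutant muscle. Over all genes 16.4% and 13.8% were lower. The macrophage and leukocyte markers were higher for 4 and 8 of 10, against 18% and 16.7% of all genes. Summed macrophage and leukocyte signals were 25055 to 36448 on innervated and 79053 to 119236 on denervated control arrays, and 20746 to 22938 and 103478 to 115300.0 on the mutant arrays. No tested marker was at 0 on all arrays. The muscle was measured whole, so fewer cells of a type and less RNA per cell cannot be told apart. The part of these shifts in the members' changes was not tested. The hybridisation spike-in controls, bacterial and phage transcripts added at fixed amounts, read 13.15 to 13.74 (mean log2 signal) on denervated and 13.83 to 14.30 on innervated arrays. Centring the arrays on them moved the median change of all genes from -0.01 to 0.82 in control and to 0.46 in mutant muscle, so every direction below is relative to the authors' scaling.

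In control muscle, denervation raised 18 members and lowered 10, with 44 not passing the test. Usp14, the protease bound to the proteasome, and Ube2g2, a conjugating enzyme of endoplasmic reticulum-associated degradation, rose most, to 2.66 and 2.62 times their innervated level. Ube2d1, which serves many ligases, fell most, 2.37-fold. Calls are from limma at an adjusted p under 0.05 over all tested probe sets, and over all genes 18% were called higher and 16.4% lower. The members' shares were 25% and 13.9%, and their median log2 change of -0.02 stood beside -0.01 for all genes. With spike-in centring the members called were 56 higher and 0 lower. Without denervated control 3, the array with the 5-day note, 15 were higher and 8 lower. Of the 28 calls, 20 held whichever single array was left out. The largest changes named below were picked among calls without overlap between the groups. Their lack of overlap is therefore no further support, and the share of all genes without overlap was not counted.

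**Figure D1:**
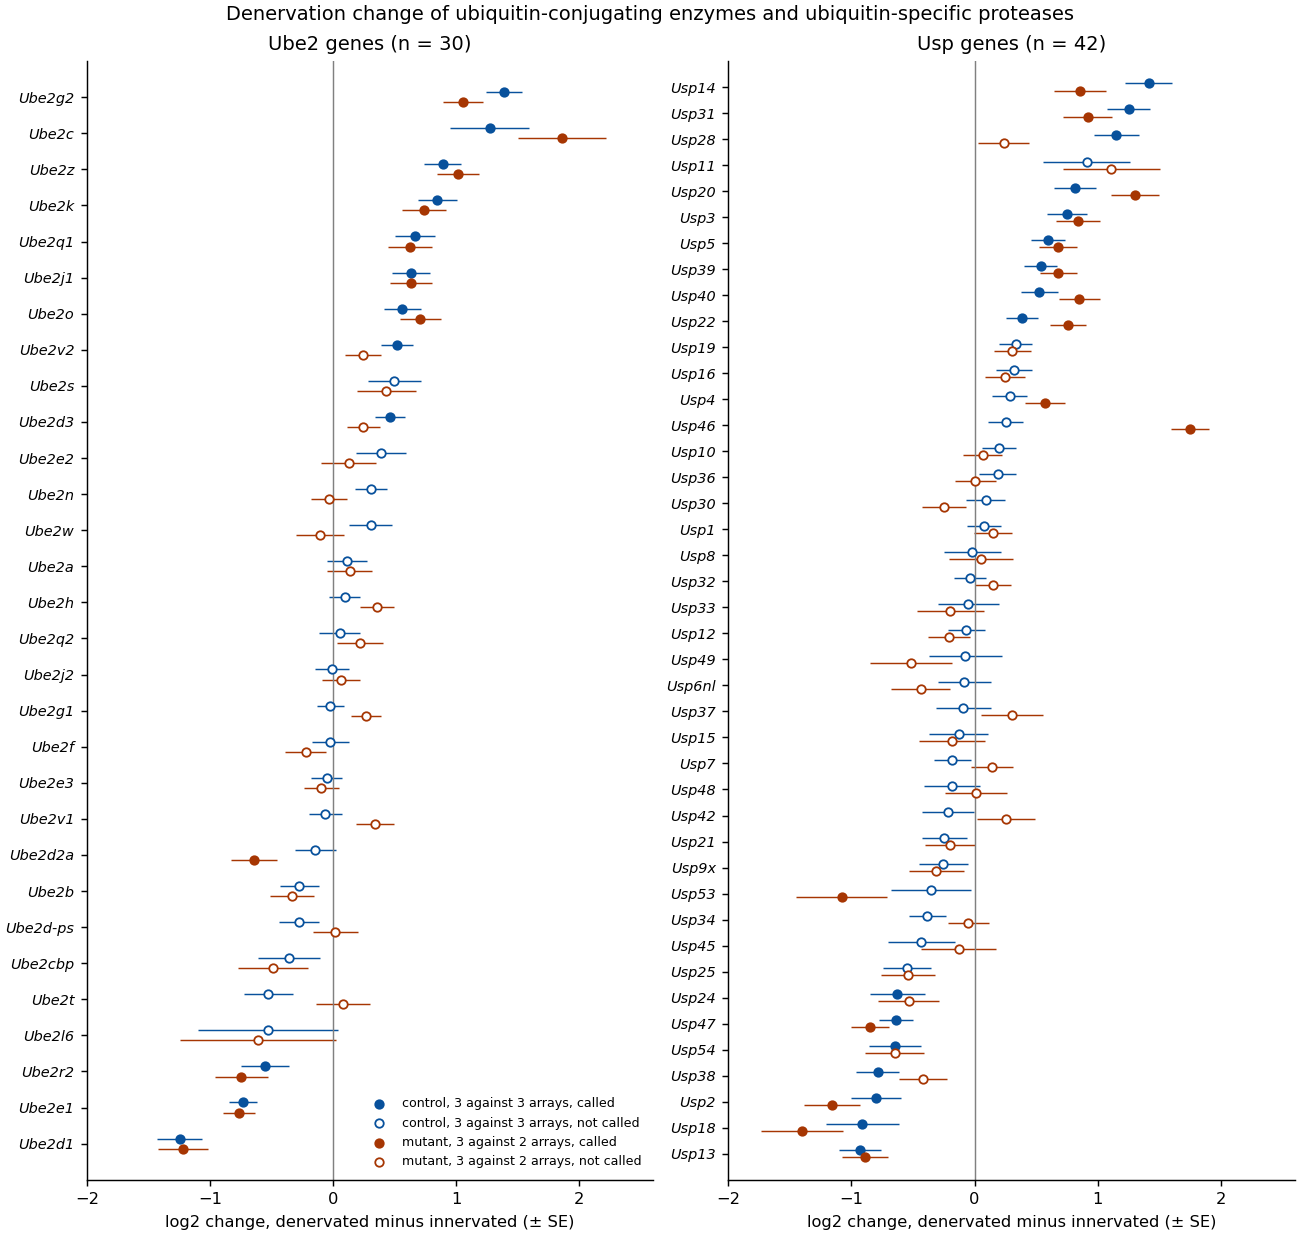
Log2 change of each tested member between denervated and innervated muscle, with its standard error, in control (blue) and mutant (brown) muscle, for 30 Ube2 genes on the left and 42 Usp genes on the right; filled points passed the test. Usp46 (0.25 in control, 1.75 in mutant) and Usp28 (1.15 and 0.24) stand furthest apart between the genotypes, and with spike-in centring every control change moves up by the same amount, as from 0.91 to 1.74 for Usp11.

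Among the genes named Ube2, which include the pseudogene Ube2d-ps and the ligase Ube2cbp, 9 of 30 rose and 3 fell in control muscle. These are 30% and 10%, against 18% and 16.4% of all genes. The UBE2D and UBE2E families, general partners of ligases, went both ways: of 7 genes in a group that also holds Ube2w, 1 rose and 2 fell. Ube2d1 read 39966, 37058 and 27174 on the innervated arrays and 13265, 16166 and 14039.5 on the denervated ones. The groups did not overlap, and the log2 change was -1.25 ± 0.18 (SE; adjusted p = 0.000193); with spike-in centring it was -0.42 and did not pass (adjusted p = 0.116). Ube2e1 read 34429.8, 33109 and 36401 before and 18921, 21106 and 22655 after denervation. Its arrays were also fully apart, at -0.73 ± 0.11 (adjusted p = 0.000348), and its sign turned with spike-in centring (0.10, adjusted p = 0.68). Ube2d3 was called higher on its brightest probe set (0.46 ± 0.12, adjusted p = 0.00996), a call lost without denervated control 1 (0.36, adjusted p = 0.0502). Another of its 7 probe sets was called lower (-0.47, adjusted p = 0.0149), so the direction of Ube2d3 depends on the probe set. Ube2d2a (-0.14), Ube2e2 (0.39), Ube2e3 (-0.05) and Ube2w (0.30), which adds ubiquitin to protein N termini, did not pass.

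Enzymes of the degradation pathway at the endoplasmic reticulum gave 2 rises among 4 genes, while 18% of all genes rose. Ube2g2 read 9429.6, 7535 and 9693 on innervated and 24466, 24553 and 20577 on denervated control arrays. Every denervated array lay above every innervated one (1.39 ± 0.15, adjusted p = 1.35e-05), and its other probe set rose as well (1.64, adjusted p = 0.000186). Ube2j1, anchored in the same membrane, read 5356, 4590.5 and 4401 and then 7317, 8668 and 6369.7, again without overlap (0.63 ± 0.15, adjusted p = 0.00726). Ube2g1 (-0.02) and Ube2j2 (-0.01) did not pass, and both were positive with spike-in centring (0.81 and 0.82).

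Of the 3 enzymes of mitosis and DNA repair, Ube2c rose. It hands ubiquitin to the anaphase-promoting complex, and its signals were 327, 227 and 542 on innervated and 1003, 877 and 707 on denervated control arrays. The groups did not overlap (1.27 ± 0.32, adjusted p = 0.00904). Its innervated mean lay within the 13.8 to 440.0 read by the trp probe sets, controls for a bacterial gene that mouse RNA lacks, so the size of the rise depends on the offset added before taking logs: with an offset 16 times larger it was 0.87. Cell cycle markers rose with it, 7 of 8 in control and 8 of 8 in mutant muscle, against 18% and 16.7% of all genes. Their summed signal was 14579 to 18216 on innervated and 34541 to 39539.6 on denervated control arrays, and whether Ube2c follows these cells was not tested. Ube2s, which extends the chains that Ube2c starts, had a change of 0.50 (adjusted p = 0.102) that did not pass, though it did without innervated control 1 (0.69, adjusted p = 0.0371) and with spike-in centring (1.33, adjusted p = 0.00113). Ube2t, of the Fanconi pathway, had -0.53 (adjusted p = 0.0624) and was called lower without innervated control 2 (-0.72, adjusted p = 0.0102) and with the mean of probe sets (-0.53, adjusted p = 0.0415); with spike-in centring its sign turned (0.30).

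The remaining Ube2 genes, Ube2cbp among them, gave 4 rises and 1 fall among 8 (50% and 12.5%, against 18% and 16.4% of all genes). Ube2z, which is charged by the activating enzyme Uba6, read 3952, 5160.1 and 5741 and, after denervation, 9239, 9087 and 8929.6. The denervated arrays lay close together and above all innervated ones (0.89 ± 0.15, adjusted p = 0.000646). The other Ube2z probe set had a change of 0.02, and the mean over probe sets still passed (0.45, adjusted p = 0.016). Ube2k, which builds chains that mark proteins for the proteasome, read 20621, 14178 and 21035 and then 36445, 30149 and 32481, also without overlap (0.85 ± 0.16, adjusted p = 0.0013). Its 3 other probe sets ranged from -0.12 to 0.17, and with the mean over probe sets its change did not pass (0.25, adjusted p = 0.278). Ube2q1 rose by 0.67 (adjusted p = 0.00685), a call that the mean over probe sets ended (0.39, adjusted p = 0.0779). Ube2o, a large enzyme that also acts as a ligase, rose by 0.56 (adjusted p = 0.0121), a call lost without denervated control 3 (0.47, adjusted p = 0.0507). Ube2r2, a partner of cullin ligases, was called lower at -0.55 (adjusted p = 0.0482) with overlapping arrays. That call was lost without any 1 of denervated control 1 or 2, innervated control 1 or 3 or any mutant array (adjusted p 0.0522 to 0.192) and with no filter, median scaling, no variance trend or only the arrays compared, and its sign turned with spike-in centring (0.28). Ube2h, of the CTLH ligase complex, had 0.09 on its brightest probe set, Ube2q2 0.05 and Ube2cbp -0.36, none of which passed. The 4 probe sets of Ube2h ran from 0.09 to 0.58, and 1 of the dimmer ones was called higher.

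Of the enzymes that build non-degradative chains, 1 of 3 rose, while 18% of all genes did. Ube2v2, a partner of Ube2n without a catalytic cysteine, rose by 0.52 (adjusted p = 0.00889) on its brightest probe set, and the mean over its 3 probe sets turned the sign (-0.09). Ube2n itself read 10079.7, 9823 and 8619 and 12858, 11657 and 10856 on its brightest probe set, a change of 0.31 that did not pass (adjusted p = 0.0922). Its other probe set read 3804, 4858 and 4169.9 and then 1181, 1860.3 and 2057, a change of -1.35 that was called lower (adjusted p = 0.000311), so no direction for Ube2n can be given. Ube2v1, the second partner, had -0.06. Ube2a (0.11) and Ube2b (-0.28, adjusted p = 0.217), which mark chromatin and serve the N-end rule pathway, did not pass on their brightest probe sets. A second Ube2b probe set read 64819, 60535 and 62881 on innervated and 44399, 48274 and 43524 on denervated control arrays. Those groups were fully apart, and that probe set was called lower (-0.47, adjusted p = 0.00623). Ube2f, for NEDD8, and Ube2l6, for the interferon-induced modifier ISG15, had -0.02 and -0.53 on their brightest probe sets and did not pass. Ube2l6 lay near the background range. All 6 Ube2f probe sets had negative changes (-0.83 to -0.02), and 2 of them were called lower.

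**Figure D2:**
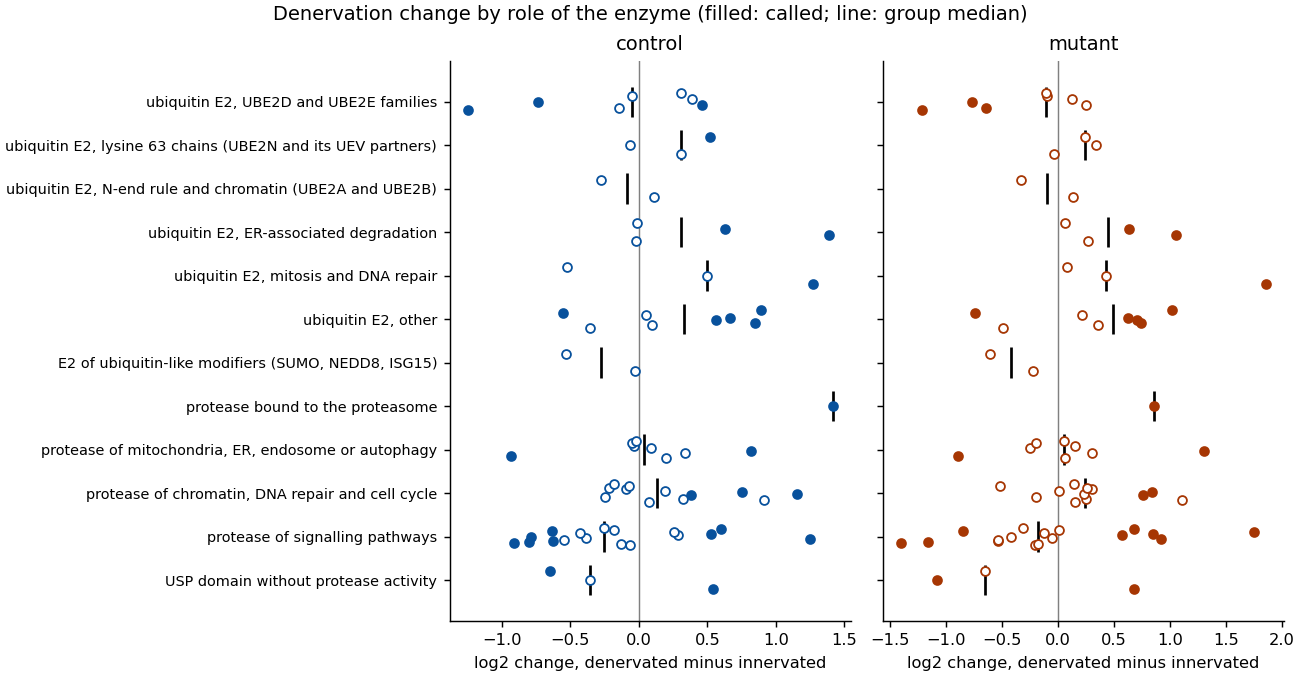
Log2 change after denervation in control (left) and mutant (right) muscle for members grouped by role, 1 point per gene, filled where called, with the median of each group as a line; Ube2w is drawn with the UBE2D and UBE2E families and Ube2cbp with the other conjugating enzymes, and Ube2d-ps and Usp6nl are not drawn. Proteases of signalling pathways spread from -0.91 to 1.25 in control muscle, and those of chromatin, DNA repair and the cell cycle held 3 rises and 0 falls among 12. Over all genes 18% were called higher and 16.4% lower there, and directions are relative to the authors' scaling. The group labelled as without protease activity holds Usp39, Usp53 and Usp54, whose activity was not measured.

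Among the genes named Usp, which include Usp6nl, 9 of 42 rose and 7 fell in control muscle (21.4% and 16.7%, against 18% and 16.4% of all genes). Usp14 read 7330.5, 11852 and 8774 on innervated and 24888, 28161 and 20614 on denervated control arrays. No denervated array came within the innervated range (1.41 ± 0.19, adjusted p = 9.13e-05). Of its 3 other probe sets 1 rose too (0.68, adjusted p = 0.00192), and the other two had changes of 0.13 and 0.17.

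Proteases of mitochondria, endoplasmic reticulum, endosomes or autophagy gave 1 rise and 1 fall among 8 (12.5% each, against 18% and 16.4% of all genes). Usp20, which acts on receptors and on membrane-bound enzymes, read 1793, 1635 and 1303 and then 2949, 2509 and 2860.4, without overlap (0.82 ± 0.17, adjusted p = 0.0029), and a second probe set rose by 1.37 (adjusted p = 0.00447). Usp13, which acts in endoplasmic reticulum-associated degradation and autophagy, read 20841, 26465 and 30516 and then 12496, 12158 and 16002. All denervated arrays were below all innervated ones (-0.93 ± 0.17, adjusted p = 0.00106), and with spike-in centring the change was -0.10 and did not pass (adjusted p = 0.684). Usp19, a membrane-anchored protease studied in muscle wasting, read 7387, 7355 and 7267 before and 8302, 8904 and 10697 after denervation. Its arrays did not overlap either, but the change of 0.33 did not pass (adjusted p = 0.0821). Usp10 (0.20), the mitochondrial Usp30 (0.09), the endosomal Usp8 (-0.02), Usp32 (-0.03) and Usp33 (-0.05) did not pass.

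Proteases of chromatin, DNA repair and the cell cycle gave 3 rises and 0 falls among 12 (25% and 0%, against 18% and 16.4% of all genes). By limma, 5479 of 12214 genes, 36 members among them, had an unadjusted p under 0.05 in this comparison. Usp28, which stabilises MYC, rose and is described with the genotypes. Usp3, which acts on histones, read 3536, 2659.7 and 3147 and then 5151, 5530.4 and 4998, without overlap (0.75 ± 0.16, adjusted p = 0.00312). Usp22, the protease of the SAGA coactivator, was called higher by 0.38 (adjusted p = 0.0419). That call was lost without any 1 of denervated control 1 or 3, innervated control 1 or 3 or a denervated mutant array (adjusted p 0.0568 to 0.137), under 7 of the other alternatives, and among these with the replicate number as a block in the control arrays (adjusted p = 0.076). Usp11, of DNA repair, had a change of 0.91 that did not pass (adjusted p = 0.0704) although its control groups did not overlap; it passed in 7 of the alternatives, among them without innervated mutant 1 or 2 (adjusted p = 0.00988 and 0.0124) and with that block (0.91, adjusted p = 0.0226). Usp7, which acts on MDM2, had -0.18, and Usp1 0.08.

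Proteases of signalling pathways gave 3 rises and 5 falls among 17 (17.6% and 29.4%, against 18% and 16.4% of all genes). Usp31, a regulator of NF-kappa-B signalling, read 1974, 2248 and 2105 on innervated and 5100.3, 6215 and 4027 on denervated control arrays, without overlap (1.25 ± 0.18, adjusted p = 0.000155). Usp5, which takes apart free chains, read 5088, 5685 and 5162 and then 7461, 8947 and 7744, also without overlap (0.60 ± 0.14, adjusted p = 0.00581). Usp40 rose by 0.53 (adjusted p = 0.0179), a call lost without denervated control 3 (0.45, adjusted p = 0.0674) or innervated control 3 (0.41, adjusted p = 0.0779), with only the arrays compared (adjusted p = 0.0604) and with the mean of its 4 probe sets (0.20, adjusted p = 0.351). Usp2, a protease of the circadian clock, read 31186, 23226 and 35058 and then 16396, 13187 and 22224. Its groups were apart (-0.80 ± 0.20, adjusted p = 0.00899) and its second probe set had -0.73 (adjusted p = 0.00435), but with spike-in centring its sign turned (0.03). Usp47, which acts in base excision repair and in ligase signalling, read 48282, 59171 and 51314 and then 34292, 36450.1 and 31317, without overlap. Of its 3 probe sets 2 were called lower, and all 3 ran from -0.92 to 0.20. The brightest had a called change of -0.63 ± 0.14 (adjusted p = 0.00361), whose sign also turned with spike-in centring (0.19). Usp38 read 4031, 6068 and 5989 and then 2734, 3201 and 3232, likewise apart (-0.79 ± 0.18, adjusted p = 0.00416), with 0.04 under that centring. These 3 falls are therefore falls relative to the other genes of the array.

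Usp18, which removes ISG15, was called lower at -0.91 (adjusted p = 0.035), with signals of 579, 693 and 813 and then 272, 458 and 369 close to the background range. The call was lost without denervated control 1 or 3 or innervated control 2 or 3 (adjusted p 0.0654 to 0.123) and with the replicate number as a block in the control arrays (adjusted p = 0.0558), no filter, quantile normalisation, median scaling or only the arrays compared. With spike-in centring the change was -0.08. Interferon response markers gave 0 calls among 6 in control muscle, against 18% higher and 16.4% lower over all genes. In that comparison limma put 36 members under an unadjusted p of 0.05. The summed signal of these markers was 7238 to 13149 on innervated and 6011 to 7955 on denervated control arrays. Usp24 was called lower at -0.63 (adjusted p = 0.0488), a call lost without any 1 of 9 arrays (adjusted p 0.0574 to 0.13); of the arrays left out, innervated control 1 and 3 were those whose removal kept it. Another 6 settings ended it too, among them no filter, median scaling and the mean of probe sets. Without innervated control 2, its highest array, the change was -0.31, and with spike-in centring its sign turned (0.20). Usp25, which counters degradation at the endoplasmic reticulum, had -0.55 (adjusted p = 0.0512), just outside the threshold. It was called lower in 7 of the alternatives, among them without denervated control 3 (-0.69, adjusted p = 0.0265), innervated control 1 (-0.73, adjusted p = 0.0152) or denervated mutant 1 (-0.55, adjusted p = 0.0494) and with the replicate number as a block in the control arrays (adjusted p = 0.0138), and its sign turned with spike-in centring (0.28). Usp15, of TGF-beta signalling, had -0.13 on its brightest probe set, while 3 of its 4 other probe sets were called lower (-1.40, -1.48 and -0.89).

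Usp39, a splicing factor, rose by 0.54 (adjusted p = 0.0079). It read 7391, 8927 and 8094 before and 11082, 11991 and 12341 after denervation, without overlap. Usp54 was called lower at -0.65 (adjusted p = 0.0366), a call lost without denervated control 1 or 3 or innervated control 1 or 2 (adjusted p 0.0681 to 0.147) and with no filter, median scaling, no variance trend or only the arrays compared, and its sign turned with spike-in centring (0.18). Usp53 had -0.35 and Usp6nl -0.08, neither of which passed.

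**Figure D3:**
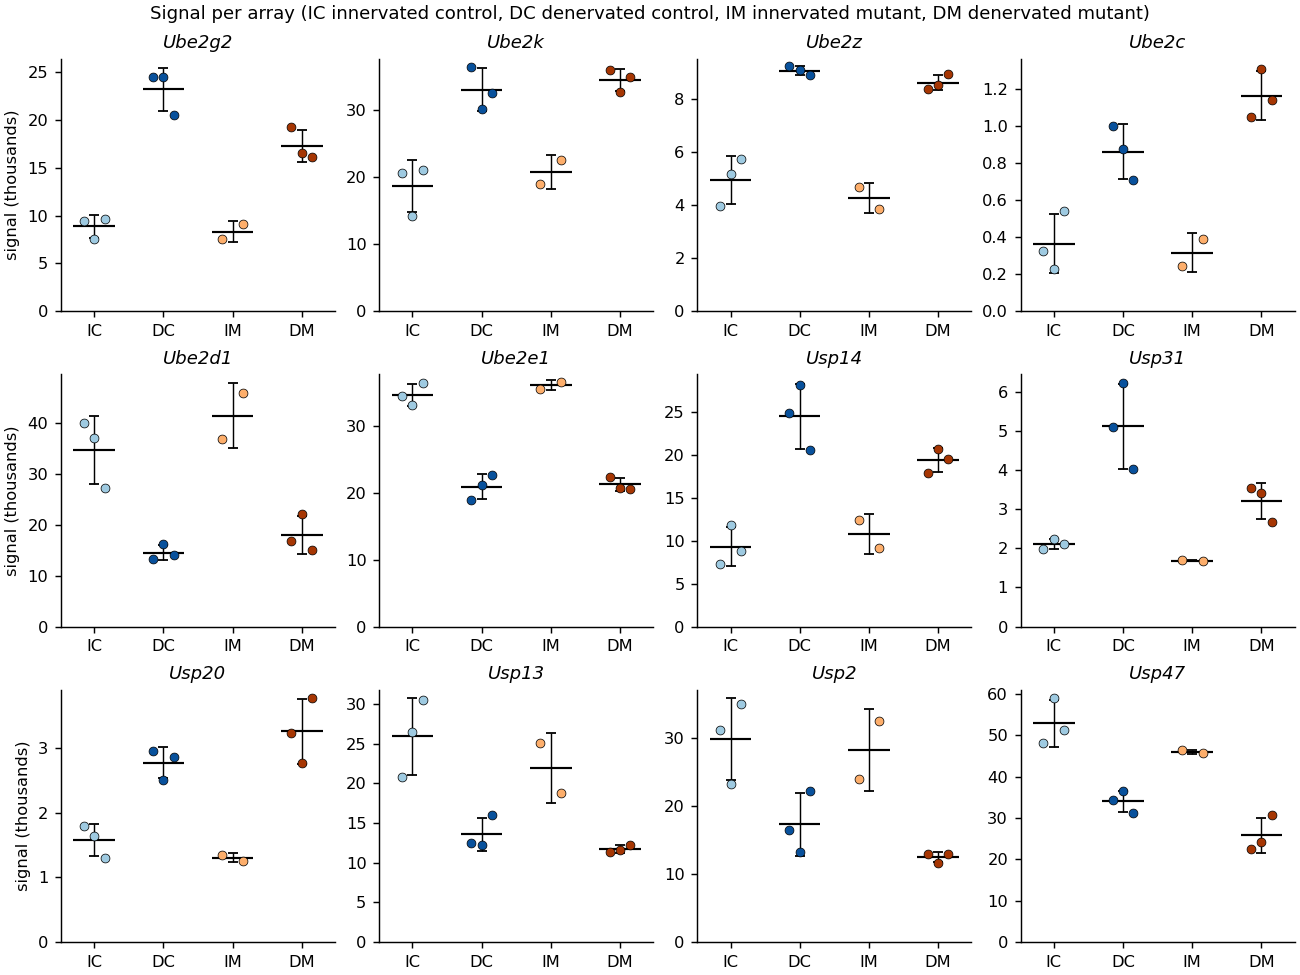
Signal of 12 members on every array (points), with the group mean as a line and the standard deviation as a bar, for innervated control (IC, n = 3), denervated control (DC, n = 3), innervated mutant (IM, n = 2) and denervated mutant (DM, n = 3). In each panel the denervated control arrays do not overlap the innervated control arrays, which was a condition for the largest changes named. The change is upward for Ube2g2, Ube2k, Ube2z, Ube2c, Usp14, Usp31 and Usp20 and downward for Ube2d1, Ube2e1, Usp13, Usp2 and Usp47. With spike-in centring the downward directions of Ube2e1, Usp2 and Usp47 turn in control muscle. In mutant muscle they stay downward under that centring (-0.29, -0.69 and -0.37).

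In mutant muscle, 17 members rose, 9 fell and 46 did not pass, against 16.7% higher and 13.8% lower over all genes. The members' median log2 change was 0.07, beside -0.01 for all genes. With spike-in centring the counts were 32 and 1, and with median scaling 26 and 4. Of the members called, 15 were higher and 7 lower in both genotypes and 0 went opposite ways, among 32 called in either. Each comparison has its own innervated and denervated arrays. The matching shares of all genes were not counted, so these counts show nothing particular to the members. Calls here rest on 2 innervated arrays, and 12 of 26 held whichever single array was left out.

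The largest rises in mutant muscle were those of Ube2c, Usp46 and Usp20. Ube2c read 243 and 392 on innervated and 1048, 1308 and 1141 on denervated mutant arrays, without overlap (1.86 ± 0.36, adjusted p = 0.00206). Usp20 read 1351 and 1249.8 and then 3237, 2768 and 3769, also fully apart (1.30 ± 0.19, adjusted p = 0.000288). Ube2g2 read 7555 and 9096 and then 19260.5, 16534 and 16133 (1.06 ± 0.16, adjusted p = 0.000418). Ube2c, Usp20 and Ube2g2 also rose in control muscle. Ube2z (1.02), Usp31 (0.92) and Usp22 (0.76) rose whichever array was left out. Usp40 (0.85) did as well, but its 4 probe sets ran from -0.41 to 0.93 and their mean did not pass (0.27, adjusted p = 0.253). Probe sets also went both ways for Usp31 (-0.50 to 2.40), Usp20 (-0.37 to 1.30) and Usp3 (-0.25 to 0.84). The means over the probe sets of Usp31, Usp20 and Usp3 still passed (0.94, 0.65 and 0.50). The rise of Usp14 (0.86, adjusted p = 0.00887) was lost without innervated mutant 2 (0.64, adjusted p = 0.113). So were those of Usp5 (0.68, then 0.48 with adjusted p = 0.0934) and Usp39 (0.68, then 0.52 with adjusted p = 0.0676). Without innervated mutant 1 the rises of Usp3 (0.84, then 0.62), Ube2k (0.74, then 0.61) and Ube2o (0.71, then 0.63) lost their calls, at adjusted p = 0.0627, 0.0832 and 0.0648. With the mean of probe sets the sign of Ube2k turned (-0.19) and Ube2q1 did not pass (0.44, adjusted p = 0.0819). Ube2j1 (0.63) lost its call without innervated mutant 1 or denervated mutant 3 (adjusted p 0.056 to 0.151), Ube2q1 (0.63) without either innervated mutant array or denervated mutant 3 (adjusted p 0.0555 to 0.133), and Usp4 (0.57) without innervated mutant 2 or denervated mutant 1 or 3 (adjusted p 0.0539 to 0.199).

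The falls in mutant muscle included 7 of those in control muscle. Ube2d1 read 36909 and 45939.5 and then 16731, 22139 and 14981, without overlap (-1.22 ± 0.20, adjusted p = 0.000727), and with spike-in centring it was still called (-0.74, adjusted p = 0.0332). It was the 1 member called lower under that centring. Usp2 read 23989 and 32509 and then 12970.1, 11651 and 12892, likewise apart (-1.16 ± 0.23, adjusted p = 0.00214). Ube2e1 (-0.76, adjusted p = 0.000767) and Usp47 (-0.85, adjusted p = 0.00138) fell whichever array was left out. Median scaling ended the calls of Ube2e1 (-0.46, adjusted p = 0.0509), Usp13, Ube2r2, Ube2d2a and Usp53. Usp18 (-1.40) and Usp13 (-0.89) lost their calls without innervated mutant 1 (-1.26, adjusted p = 0.0698, and -0.68, adjusted p = 0.0608). The denervated mutant signals of Usp18 (270 to 301) lay within the background range. With the offset 16 times larger its change was -0.93 (adjusted p = 0.006). Ube2r2 (-0.74) lost its call without either innervated mutant array or denervated mutant 2 or 3 (adjusted p 0.0581 to 0.155). The 2 members called lower in mutant muscle alone were Ube2d2a (-0.64), whose call was lost without denervated mutant 2 or 3 or innervated mutant 1 (adjusted p 0.084 to 0.183), and Usp53 (-1.08), whose call was lost without any 1 of denervated control 2 or 3, denervated mutant 2 or 3, innervated control 3 or an innervated mutant array (adjusted p 0.0502 to 0.214). The call of Usp53 was also lost with the replicate block (adjusted p = 0.0803), no filter or no variance trend, and that of Ube2d2a with no variance trend or the mean of probe sets. Neither differed between the genotypes in its denervation change by a test that passed (adjusted p = 0.698 and 0.803).

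Between the genotypes in denervated muscle, 1 member was higher in the mutant and 1 lower, against 1.05% higher and 1.14% lower over all genes. The higher one was Usp46, a protease that acts with the cofactors Wdr48 and Wdr20. It read 2425, 2403 and 2112 on innervated control arrays and 2710.3, 2818 and 2737 on denervated control arrays, without overlap but with a change of 0.25 ± 0.14 that did not pass (adjusted p = 0.206). In the mutant it read 2084 and 1905 on innervated and 7505, 6856 and 5951 on denervated arrays, a rise of 1.75 ± 0.16 (adjusted p = 5.32e-06). The 3 denervated mutant arrays stood above all 8 others. Denervated mutant muscle held 2.44 times the signal of denervated control muscle (1.29 ± 0.14 on the log2 scale, adjusted p = 0.000413), and this call held without any single array (1.21 to 1.38, largest adjusted p = 0.00449) and with spike-in centring (0.91, adjusted p = 0.0218). A second Usp46 probe set read 2127, 2020.0 and 2072 on denervated control and 3949.8, 4109 and 3459 on denervated mutant arrays. It was also higher in the mutant (0.88, adjusted p = 0.0136).

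The interaction is the denervation change in the mutant minus that in the control. For Usp46 it was 1.50 ± 0.21 (adjusted p = 0.0141), and Usp46 was the 1 member called higher, with 0 called lower, against 0.123% and 0.139% of all genes. In this comparison limma put 2 members and 997 genes under an unadjusted p of 0.05. The interaction call was lost without denervated mutant 2 (1.48, adjusted p = 0.0503) or innervated mutant 2 (1.43, adjusted p = 0.0666) and with spike-in centring (1.14, adjusted p = 0.175) or no variance trend (adjusted p = 0.0561). The second probe set had an interaction of 1.06 that did not pass (adjusted p = 0.13). Usp12, the closest relative of Usp46, had denervation changes of -0.07 and -0.20, and Usp1, which shares the cofactor Wdr48, had 0.08 and 0.15. Wdr48 had -0.12 and -0.27, and Wdr20 -0.01 and -0.40. None of these 8 changes passed, and the 4 genes were picked for their relation to Usp46 after its values were seen.

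The member lower in denervated mutant muscle was Usp28. It read 3962, 6527 and 5748 on innervated and 13403, 11588 and 10573 on denervated control arrays, a rise of 1.15 ± 0.19 without overlap (adjusted p = 0.000417). In the mutant it read 6507 and 4944 and then 6685, 6919 and 6457, where the groups overlapped and the change of 0.24 ± 0.21 did not pass (adjusted p = 0.429). The denervated mutant arrays all lay below the denervated control arrays (-0.82 ± 0.19, adjusted p = 0.0417). That call was lost without any 1 of the 6 denervated arrays (adjusted p 0.054 to 0.195) and with the replicate number as a block (adjusted p = 0.0718), median scaling (adjusted p = 0.124) or no variance trend (adjusted p = 0.115). The interaction of -0.92 ± 0.28 did not pass (adjusted p = 0.32), so a different denervation response of Usp28 in the mutant was not shown.

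**Figure D4:**
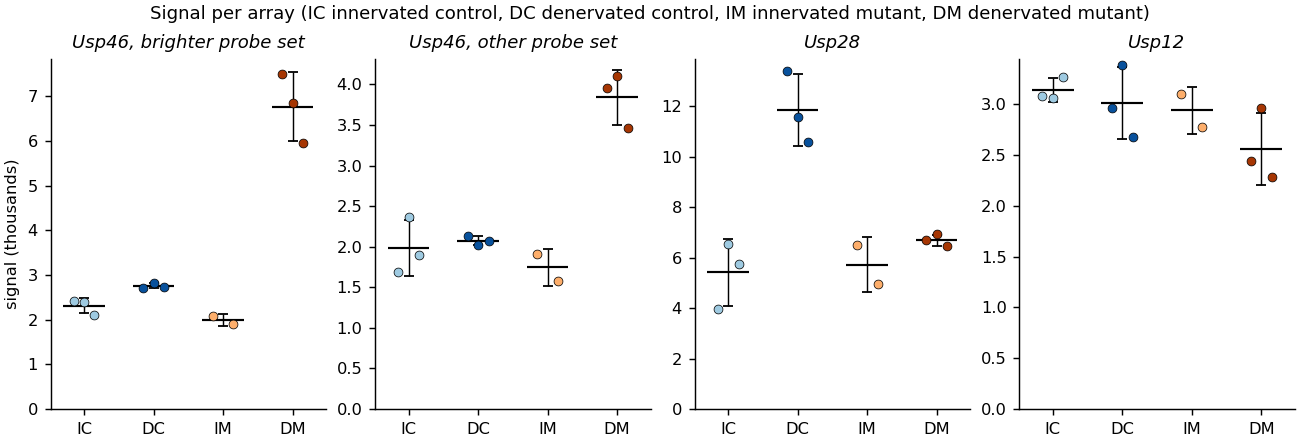
Signal on every array (points), with group mean (line) and standard deviation (bar), for both tested probe sets of Usp46, for Usp28 and for Usp12, in innervated control (IC, n = 3), denervated control (DC, n = 3), innervated mutant (IM, n = 2) and denervated mutant (DM, n = 3) muscle. Denervated mutant arrays stand highest on both Usp46 probe sets, and denervated control arrays stand highest for Usp28.

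The next smallest p between the genotypes in denervated muscle belonged to Usp31 (-0.66 ± 0.18, adjusted p = 0.0983), Usp47 (-0.41 ± 0.14, adjusted p = 0.227) and Ube2g2 (-0.42 ± 0.15, adjusted p = 0.239), none of which passed. Usp31 read 5100.3, 6215 and 4027 on denervated control and 3537, 3418 and 2677 on denervated mutant arrays, without overlap, and it was called lower without denervated control 3 (-0.82, adjusted p = 0.0399) and with spike-in centring (-1.04, adjusted p = 0.0153). With spike-in centring 6 members were lower in denervated mutant muscle, where that centring moved the median of all genes to -0.37. In innervated muscle no member differed between the genotypes by limma's test, against 0% of all genes higher and 0% lower; 2 members and 461 genes had an unadjusted p under 0.05, and the other normalisations, filters and variance settings run also gave 0 members. The smallest p there belonged to Usp40 (-0.30), Usp37 (-0.60), Usp7 (-0.36), Usp49 (0.55) and Ube2d-ps (-0.45).

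How far the probe sets of a gene went together could be seen for the 50 members with more than 1 tested probe set. In control muscle the changes had the same sign in 29 of them and mixed signs in 21, and in mutant muscle in 28 and 22. Opposite calls within a gene were found for Ube2d3 in control muscle and for Ube2k in mutant muscle, where the brightest probe set rose by 0.74 and a dimmer one was called lower (-0.93, adjusted p = 0.0152). Probe sets can report different transcript ends or near-identical copies, and which of these holds was not tested.

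**Figure D5:**
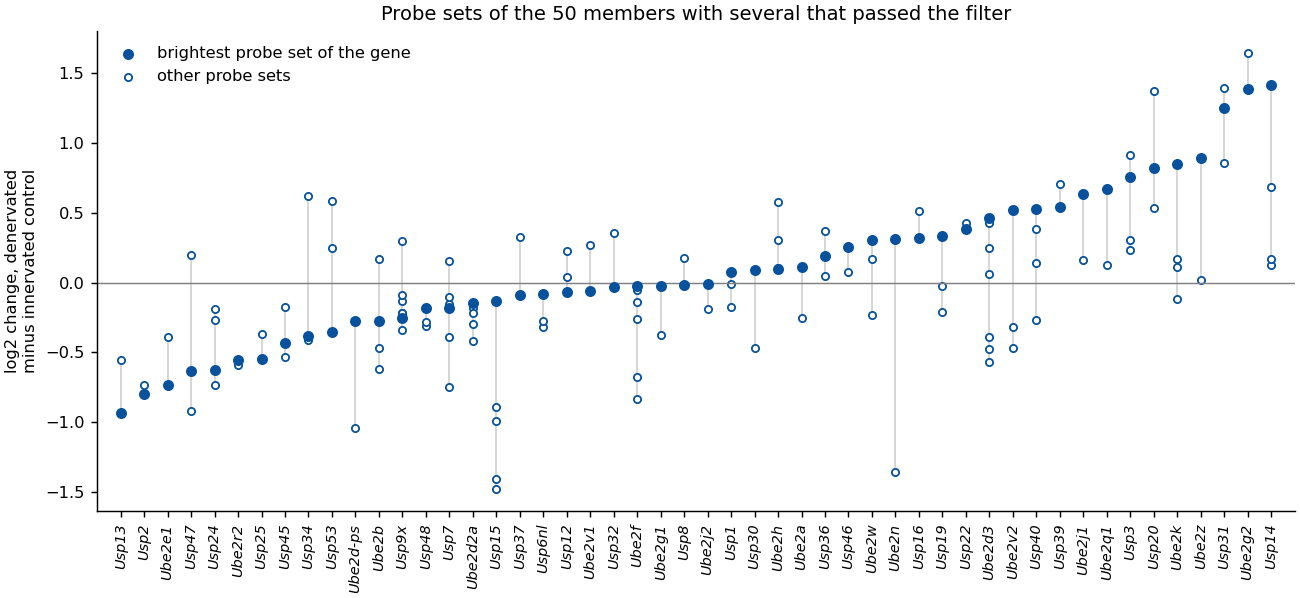
Log2 change after denervation in control muscle for every tested probe set of the 50 members with several, ordered by the brightest probe set (filled); open points are the others and grey lines join the probe sets of a gene. Ube2n, Usp15 and Ube2d3 show the brightest probe set apart from others of the same gene, while both probe sets of Ube2g2 lie above 1.

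The other genes of the pathway came from lists chosen with earlier results of these data known. Over all genes 18% were called higher and 16.4% lower in control muscle, and 16.7% and 13.8% in mutant muscle. Of 6 activating enzymes, 0 rose and 1 fell in control muscle: Uba7, which activates ISG15 (-0.98 ± 0.23, adjusted p = 0.00654). Atg7, of autophagy, had 0.54 (adjusted p = 0.0517), Uba3 0.29 and Sae1 0.20. Of 7 other proteins with a conjugating enzyme fold, Tsg101, of endosomal sorting, rose by 0.48 (adjusted p = 0.0127) and Aktip, a vesicle and telomere protein without conjugating activity, fell by 0.94 (adjusted p = 0.000104). Ufc1 (0.40) and Atg3 (0.33) did not pass. Of 4 ubiquitin-like modifiers Ufm1 rose (0.63, adjusted p = 0.00337), while Urm1 (0.61), Nedd8 (0.21) and Sumo3 (0.01) did not pass.

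Among 30 deubiquitinases of other families, 10 rose and 2 fell in control muscle (33.3% and 6.67%, against 18% and 16.4% of all genes). In mutant muscle 8 rose and 3 fell (26.7% and 10%, against 16.7% and 13.8% of all genes). Psmd14, the metalloprotease of the proteasome lid, read 29386, 21133 and 29959.8 and then 61619, 76858 and 67635 in control muscle. No arrays overlapped, and it rose by 1.37 ± 0.15 (adjusted p = 2.15e-05) there and by 1.36 ± 0.17 in mutant muscle (adjusted p = 7.85e-05). Cyld, a negative regulator of NF-kappa-B signalling, rose by 1.46 in control and 2.00 in mutant muscle (adjusted p = 4.3e-05 and 1.16e-05). Mindy2 fell by 0.98 and 1.03 (adjusted p = 4.01e-05 and 9.26e-05). Otud1 differed between the genotypes. It read 3746, 4409 and 3066 and then 25236, 26036 and 12888 in control muscle, and 3354 and 3490.1 and then 2406, 2953 and 6182 in mutant muscle. The rise of 2.46 ± 0.33 in control muscle passed (adjusted p = 9.13e-05), and the mutant change of 0.04 ± 0.36 did not (adjusted p = 0.942). All denervated mutant arrays lay below all denervated control arrays (-2.52 ± 0.33, adjusted p = 0.00149), and the interaction of -2.41 ± 0.49 did not pass (adjusted p = 0.0787).

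Of 20 ligases that work with member enzymes, 6 rose and 2 fell in control muscle (30% and 10%, against 18% and 16.4% of all genes). In mutant muscle 6 rose and 0 fell (30% and 0%, against 16.7% and 13.8% of all genes). Fbxo32, the muscle atrophy ligase atrogin-1, rose by 1.87 ± 0.17 in control (adjusted p = 3.36e-06) and 2.52 ± 0.19 in mutant muscle (adjusted p = 1.01e-06). Ubr4, an N-end rule ligase, rose by 1.06 and 1.38 (adjusted p = 3.25e-05 and 1.38e-05). Mdm2, the ligase of p53, rose in control muscle (0.97, adjusted p = 0.000209), and its mutant change of 0.34 did not pass (adjusted p = 0.131; interaction -0.62, adjusted p = 0.411). Ubr2, a relative of Ubr4 and partner of Ube2a and Ube2b, fell in control muscle (-0.86, adjusted p = 0.000607) and had -0.27 in mutant muscle (adjusted p = 0.247). Of 7 SUMO proteases Senp3 rose in both genotypes (0.42 and 0.44, adjusted p = 0.0179 and 0.0284), while Senp7 (-0.43), Senp2 (-0.20) and Senp6 (0.19) did not pass in control muscle.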

How the data were processed

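Total RNA of 11 samples was measured on Affymetrix arrays of 45101 probe sets. The deposited values are linear signal intensities, 1 per probe set and array, scaled by the authors so that every array has a 2% trimmed mean of 2500.0, which was found from the values. The sources used here do not name the software. Groups come from the sample titles. Signals were taken as log2(value + 16) without further normalisation. Probe sets above their array's median on at least 2 arrays were kept and 64 control probe sets left out, leaving 26170. Names came from the platform annotation: 34958 probe sets had 1 symbol, 932 several and 9211 were not listed. Of the 84 member genes 83 had a reference entry, and 0 symbols were updated. Each gene is represented by the brightest of its kept probe sets.

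With limma 3.58.1 in R 4.3.3, group means were estimated in a single fit of the 11 arrays, with eBayes (trend) and Benjamini-Hochberg adjustment over all kept probe sets, at 0.05. Errors are the fit's standard error or the standard deviation between arrays. An exact permutation test with 3 arrays a side reaches 0.1 at best and was not used. The pipeline was tested on simulated data. Named genes are the 10 largest rises and falls past the threshold without overlap between groups, the members past the threshold or with the 5 smallest p for the genotype comparisons and interaction, up to 4 per role or pathway list, and a fixed list of 10 genes. Of that list Ube2l3 was not found by the name rule and was not tested. Further members are named beside them, chosen after their values were seen, and all 28 and 26 denervation calls are given. Members and lists were chosen with earlier results of these data known. Deviations of equally numbered innervated and denervated control arrays correlated at 0.11, 0.22 and 0.30, and at -0.18 to 0.10 in the other pairs of groups. Arrays with unequal numbers were not compared, so these values cannot tell whether the numbers pair the samples. Promoters are RefSeq windows.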

Additional observations from a re-analysis of the deposited data

Results flagged for a closer look

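The denervation change of Usp46 differed between the genotypes by 1.50 on the log2 scale (limma interaction, adjusted p = 0.0141): it was 0.25 in control muscle and 1.75 in mutant muscle, and the 3 denervated mutant arrays stood above all others. This was the 1 member for which the difference itself passed the test. The macrophage and leukocyte markers had a median interaction of 0.82, the direction of Usp46. Of these 10, 1 was called higher (Ptprc, 1.76, adjusted p = 0.0259), against 0.123% of all genes. The summed signal of the 10 markers was 25055 to 36448 on innervated control and 20746 to 22938 on innervated mutant arrays. On denervated arrays it was 79053 to 119236 in control and 103478 to 115300.0 in mutant muscle. Their median change between the genotypes was -0.46 in innervated and 0.24 in denervated muscle, where Usp46 had 1.29. The cell cycle markers had a median interaction of 0.41, and 1 of 8 was called lower (Rrm2, -2.42, adjusted p = 0.00605), against 0.139% of all genes. Rrm2 read 9212, 10944 and 11198 on denervated control and 1488, 1240.2 and 1236 on denervated mutant arrays, while the list's sums were 34541 to 39539.6 and 28218 to 30464. Ptprc and Rrm2 were singled out after their values were seen. The part of these markers in the difference was not tested.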

How the results depend on the processing

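Of the named or called member changes recomputed under the 23 alternatives, 1724 kept direction and call, 134 lost the call, 26 gained one and 42 turned sign, some of them called in neither setting. The 1724 also hold changes not called in either setting. They include alternatives that cannot move the log2 change, such as leaving out an array of a group not compared. Under spike-in centring 48 were kept, 12 lost the call, 9 gained one and 17 turned sign. Members higher after denervation in control muscle were 18; spike-in centring gave 56 and the mean of probe sets 12, and leaving out 1 array gave 15 to 19. Members lower there were 10, and became 6 without a filter, 6 with median scaling, 0 with spike-in centring and 6 with only the arrays compared, and 6 to 9 without 1 array. In mutant muscle the 17 higher became 26 with median scaling and 32 with spike-in centring, and 12 to 18 without 1 array. The 9 lower became 4 with median scaling, 1 with spike-in centring and 14 with the mean of probe sets, and 4 to 10 without 1 array. The member lower in denervated mutant muscle became 0 with median scaling, 0 without a variance trend and 6 with spike-in centring, and 0 to 1 without 1 array. The interaction call became 0 with spike-in centring and 0 without a variance trend, and 0 to 1 without 1 array.

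With spike-in centring the change in control muscle reversed for Ube2b (0.55), Ube2e1 (0.10), Ube2f (0.80), Ube2g1 (0.81), Ube2j2 (0.82), Ube2l6 (0.30), Ube2r2 (0.28), Ube2t (0.30), Ube2v1 (0.77), Usp2 (0.029), Usp24 (0.20), Usp25 (0.28), Usp38 (0.041), Usp47 (0.19), Usp53 (0.47), Usp54 (0.18) and Usp6nl (0.74). With the mean of probe sets it reversed for Ube2a (-0.072), Ube2d3 (-0.034), Ube2n (-0.52), Ube2v1 (0.10), Ube2v2 (-0.088) and Usp53 (0.16), and in mutant muscle for Ube2k (-0.19). Changes close to 0 in control muscle turned sign with median scaling for Ube2f (0.052), Ube2g1 (0.053), Ube2j2 (0.067) and Ube2v1 (0.014) and with quantile normalisation for Ube2g1 (0.032). Without 1 array they ran from -0.016 to 0.26 for Ube2a, -0.14 to 0.080 for Ube2f, -0.049 to 0.0062 for Ube2g1, -0.12 to 0.073 for Ube2j2, -0.15 to 0.068 for Ube2v1 and -0.20 to 0.075 for Usp6nl. The cause was not tested. With the replicate block, 17 members were higher and 8 lower in control muscle, 17 and 8 in mutant muscle, and 0 lower in denervated mutant muscle. A replicate block in the control arrays alone, chosen after seeing the data, gave 18 and 10, with Usp18 and Usp22 losing their calls and Usp11 and Usp25 gaining one. A smaller and a larger pseudocount and quantile normalisation kept every count within 1.5 times. Signals near background and groups of 2 or 3 arrays limit what could be called.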
